A study of Homo sapiens with 2 samples.

Results

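The genes described here are the Wnt ligands, their receptors and their antagonists, in CWR22rv1 cells, an androgen receptor-positive human prostate cancer line. The rule goes by symbol and uses no measured value, though it was set with earlier results of these data known: all genes named WNT, FZD, SFRP, DKK or RSPO with a number, LGR4 to LGR6, and AXIN1, AXIN2, LEF1, TCF7, TCF7L1, TCF7L2, NKD1, NKD2, PORCN, WLS, WIF1, LRP5, LRP6, RNF43 and ZNRF3. This gave 59 of the 19607 genes in the expression table. RNA was sequenced from 1 library of cells with Akt1 and Akt2 knocked out by CRISPR/Cas9 (Akt1/2 DKO) and from 1 library of wild type cells (control). By the study's methods, DKO cells were grown from single cells after puromycin selection. The labels do not say which clone was sequenced, so an effect of the knockout and a difference between 1 clone and the control cells cannot be told apart. No difference below has a replicate check, and no p-value is given.

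Wnt proteins are lipid-modified by PORCN in the endoplasmic reticulum, carried to the cell surface by WLS, and bound there by a Frizzled (FZD) receptor together with LRP5 or LRP6. In the canonical branch this halts the breakdown of β-catenin, which then joins TCF/LEF factors on DNA. The pathway is held in check outside the cell by DKK, SFRP and WIF1 proteins, at the membrane by the ubiquitin ligases RNF43 and ZNRF3, which R-spondins and LGR receptors restrain, and inside the cell by AXIN2 and NKD proteins. In the prostate, Wnt signalling is known for its part in budding of the gland, in epithelial progenitors and in tumour progression.

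Library totals were 9970825 reads for control and 10718654 for Akt1/2 DKO. AKT1 had 2645 reads in control and 591 in Akt1/2 DKO, and AKT2 had 2362 and 667, so the targeted genes were lower in the library labelled as the knockout. All 9 luminal prostate markers examined had reads in both libraries, and KLK3 (184 and 29 reads) had the fewest in Akt1/2 DKO. The 3 leukocyte markers held 1 and 0 reads in all, the 3 endothelial markers 1 and 2, and the 6 fibroblast markers 142 and 157, most of them in COL1A1 (55 and 106) and COL3A1 (74 and 9). The part of these markers in the results was not tested.

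Frizzled receptors made up the group with the most members higher in Akt1/2 DKO cells, led by FZD5, whose normalized reads were 15.2-fold higher. As RNA was taken from whole cultures, fewer cells that express a gene and less of its RNA per cell cannot be told apart. WNT7B, WLS and LEF1 were higher as well. On the other side, RSPO4, DKK1, LGR4 and AXIN2 were lower. The co-receptors LRP5 and LRP6 differed by less than 1.5-fold. A gene was taken as measured when its reads in both libraries summed to at least 10, which 36 members reached, and as higher or lower when its normalized reads differed by at least 1.5-fold. By this measure 13 members were higher, 8 were lower and 15 lay within 1.5-fold, whereas 15.9% of all 13318 measured genes were higher and 15% lower. The members' shares were 36.1% and 22.2%. Where the exact 95% interval for counting error was also required to leave out no change, 12 members were higher and 6 lower, and the shares of all genes were 13.9% and 13.2%. Members carried fewer reads than the average gene, with a median sum of 161 over both libraries against 637, and low counts scatter more. Among the 24 members with at least 100 reads, 10 were higher and 5 lower (41.7% and 20.8%), whereas 11.3% and 11.9% of 10956 genes at this depth were. The median log2 fold change was 0.24 over the measured members and 0.0063 over all measured genes, and the median size of the change, regardless of sign, was 0.83 and 0.33.

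**Figure D1:**
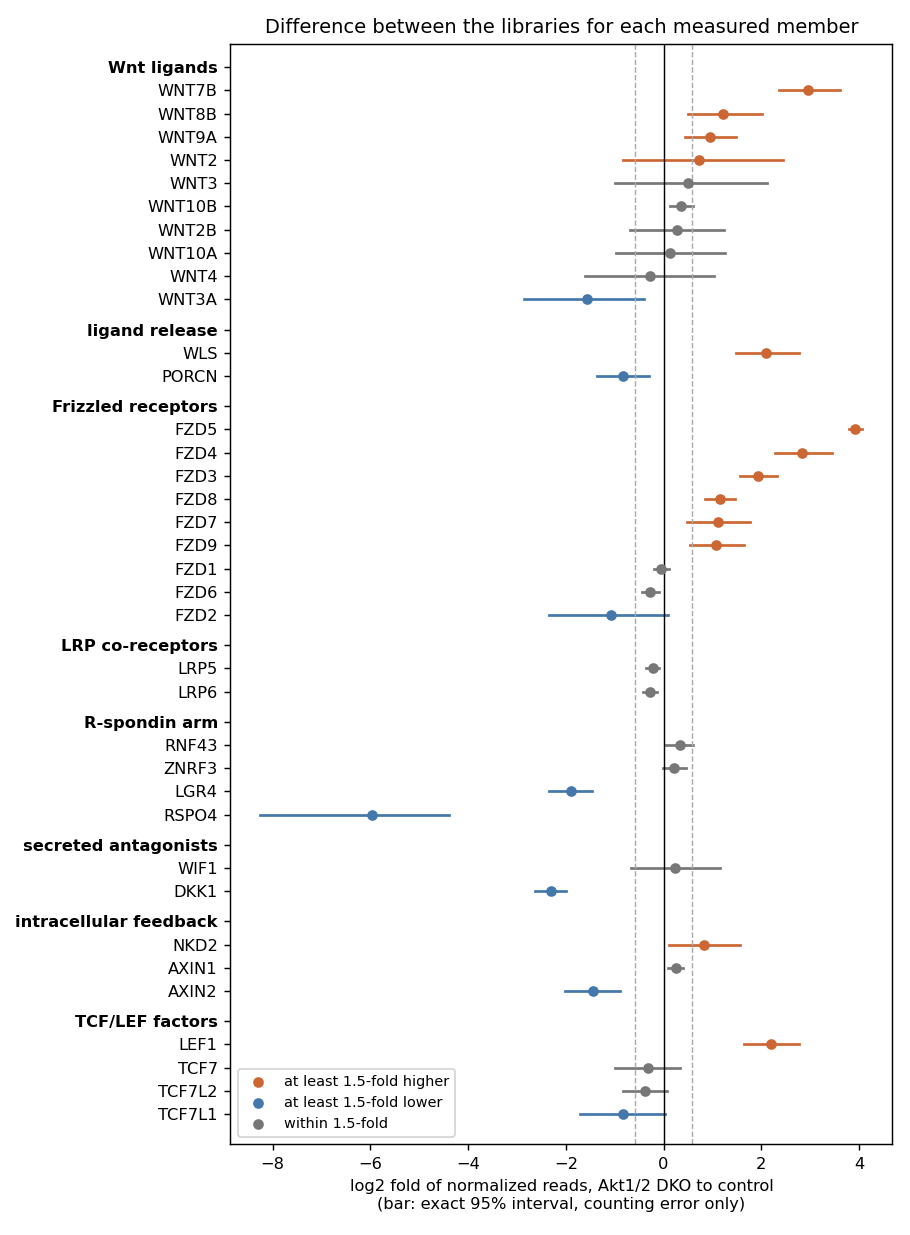
Log2 fold of normalized reads, Akt1/2 DKO to control, for the 36 measured members (1 library per condition), grouped by role; bars are exact 95% intervals for counting error only and dashed lines mark 1.5-fold. Of the 9 Frizzled receptors 6 lie to the right of the upper line, and RSPO4, at -5.96, lies farthest to the left of all members. Of all measured genes, 15.9% were at least 1.5-fold higher.

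Among the Frizzled receptors, FZD5 had 438 reads in control and 7386 in Akt1/2 DKO. The gene (ENSG00000163251) lies on chromosome 2 from 207762586 to 207769563 (GRCh38), and its fold of 15.2 had a 95% counting interval of 13.8 to 16.8. In FPKM, which scales reads by transcript length and so allows genes to be compared, it went from 6.50 to 102. It was therefore a gene of middling level in control cells, above 44.0% of the genes listed with an FPKM over 0, and ranked above 94.2% of them in Akt1/2 DKO cells. FZD4 had 30 and 238 reads, 7.16-fold higher in Akt1/2 DKO (95% interval 4.88 to 10.8). FZD4 shares 18.9% of its exon bases with PRSS23 on the opposite strand. PRSS23 itself had 50 and 214 reads, and since the sources used here do not state that strand was used in counting, reads of these neighbours may not be told apart.

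FZD3 had 75 reads in control and 317 in Akt1/2 DKO, 3.81-fold higher (95% interval 2.96 to 4.97). The ratio of its FPKM was smaller, 2.19. FZD8 had 126 and 312 reads, FZD9 40 and 94, and FZD7 30 and 72. These receptors were all higher in Akt1/2 DKO, by 2.23-, 2.12- and 2.16-fold, and each interval left out no change. FZD1 (717 and 772 reads) and FZD6 (536 and 494 reads) lay within 1.5-fold, at 0.971- and 0.831-fold. FZD2, with only 19 and 10 reads, was 2.11-fold lower, but its interval (0.932 to 5.07 times lower) held no change. FZD10 had no read in either library.

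The level of the Frizzled family as a whole, as summed FPKM of its 10 genes, was 41.5 in control and 144.5 in Akt1/2 DKO, a ratio of 3.49. Without FZD5 the sums were 35.0 and 42.5, a ratio of 1.22. In control cells FZD6 held the largest share of the family (40.5%), followed by FZD1 (24.7%) and FZD5 (15.7%). In Akt1/2 DKO cells FZD5 held 70.6%, and FZD6 and FZD1 held 9.66% and 7.11%. Most of the change in the summed level was thus that of FZD5. The co-receptors, which every canonical signal needs, did not follow. LRP5 had 870 and 825 reads and LRP6 795 and 729, 1.17-fold (95% interval 1.06 to 1.29) and 1.21-fold (1.09 to 1.34) lower.

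**Figure D2:**
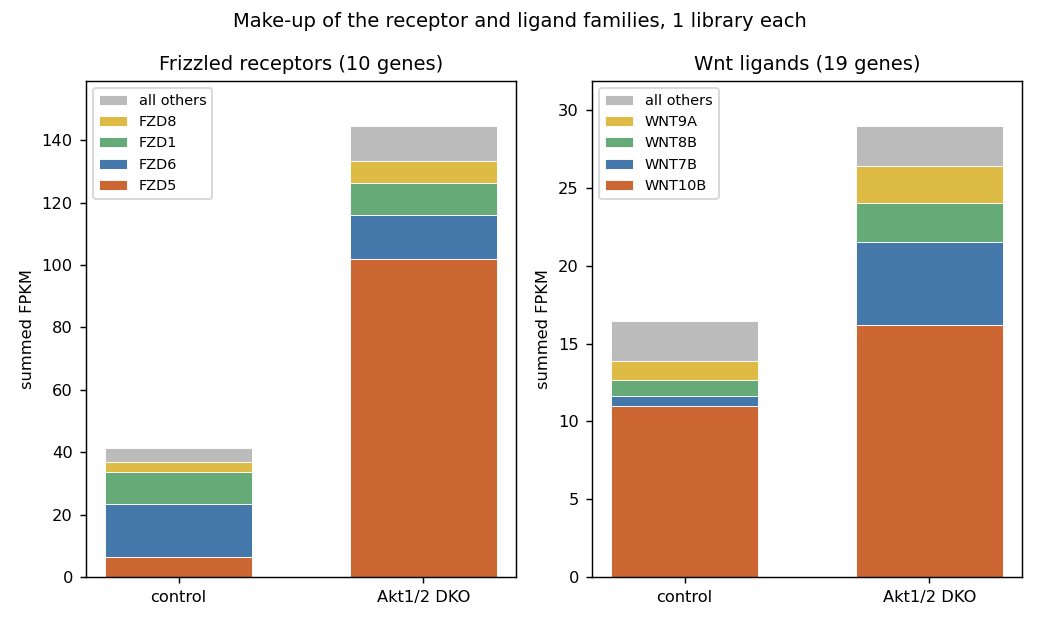
Summed FPKM of the 10 Frizzled receptor genes (left) and the 19 Wnt ligand genes (right) in the control and Akt1/2 DKO libraries, stacked by gene. FZD5 holds 15.7% of the Frizzled bar in control and 70.6% in Akt1/2 DKO, while WNT10B is the largest part of both ligand bars.

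Of the 19 Wnt ligand genes, 10 were measured, 4 of them higher and 1 lower. These are 40% and 10%, beside 15.9% and 15% of all measured genes. For 3 of the 4 the interval left out no change. Reads of the 10 ligands had a median sum of 37.5, against 637 over all measured genes. WNT7B (ENSG00000188064, chromosome 22 from 45920362 to 45977129) had 25 reads in control and 215 in Akt1/2 DKO. This was 7.76-fold higher (95% interval 5.11 to 12.3), the largest difference among the ligands. WNT8B had 22 and 57 reads and WNT9A 48 and 103, 2.34-fold (1.41 to 4.01) and 1.94-fold (1.36 to 2.79) higher. WNT2 had only 6 and 11 reads, and its 1.65-fold difference had an interval from 0.561 to 5.45. WNT3A, a ligand much used to switch on the canonical branch in culture, had 24 and 9 reads and was 2.96-fold lower (1.33 to 7.23).

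The ligand with the highest level in both libraries was WNT10B, at an FPKM of 10.98 in control and 16.2 in Akt1/2 DKO. Its reads, 249 and 356, differed 1.29-fold, with an interval (1.09 to 1.52) that left out no change. It held 66.7% of the summed FPKM of the ligands in control and 55.8% in Akt1/2 DKO, and WNT7B held 4.01% and 18.4%. The sum itself was 16.46 in control and 28.98 in Akt1/2 DKO, so the ligand genes together were lower than the Frizzled genes in both libraries. The other measured ligands had few reads and intervals that held no change: WNT10A had 14 and 17 reads, WNT2B 18 and 24, WNT3 7 and 11, and WNT4 12 and 11. Exons of WNT2B share 21.2% of their bases with ST7L on the opposite strand, which had 104 and 112 reads.

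The genes that release Wnt proteins moved in opposite directions. WLS (ENSG00000116729, chromosome 1 from 68098473 to 68233120), the carrier of Wnt proteins to the cell surface, had 26 reads in control and 123 in Akt1/2 DKO, 4.27-fold higher (95% interval 2.78 to 6.79). PORCN, the acyltransferase that makes Wnt proteins ready for WLS, had 80 and 50 reads, 1.77-fold lower (1.23 to 2.58).

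**Figure D3:**
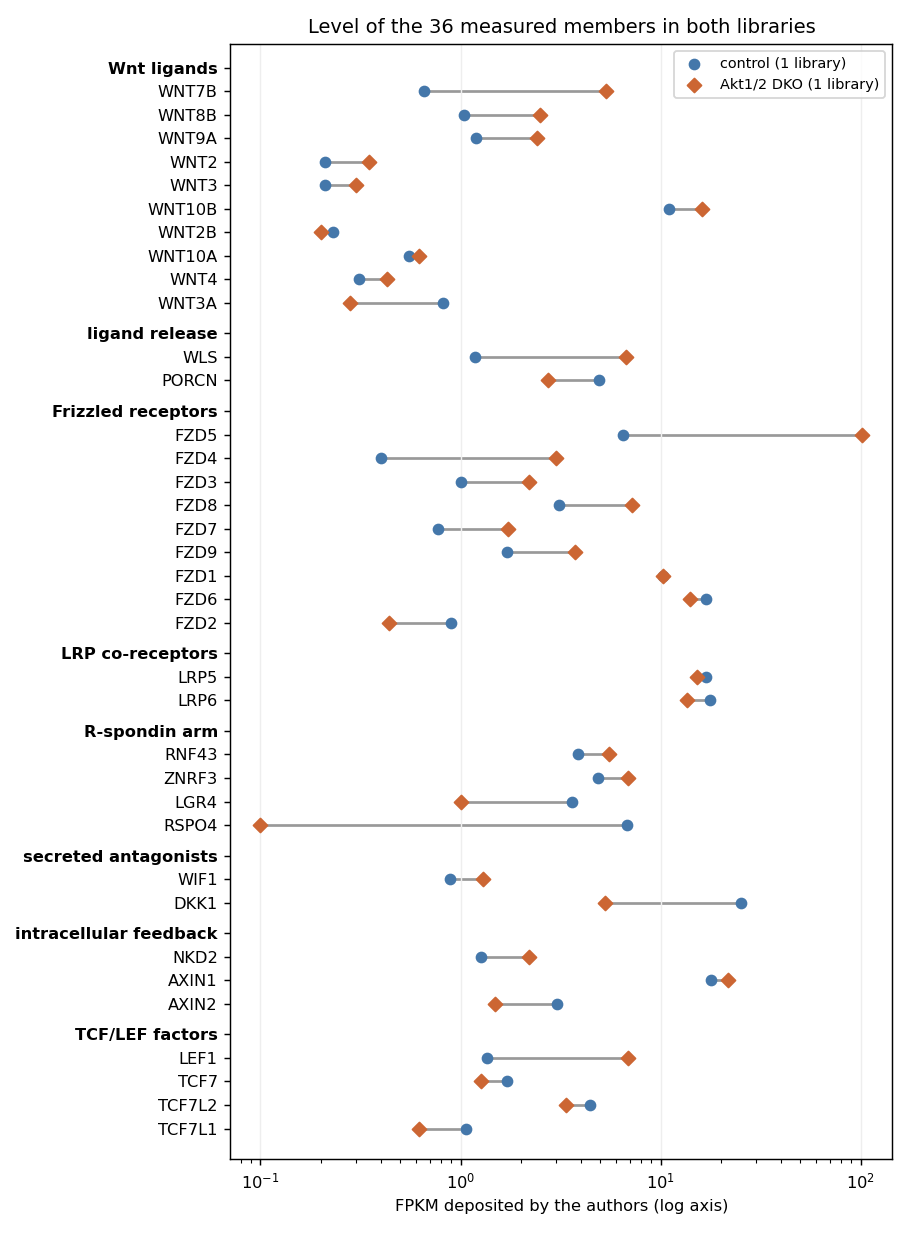
FPKM (log axis) of the 36 measured members in the control (circles) and Akt1/2 DKO (diamonds) libraries, grouped by role and joined by a line per gene. FZD5 rises from 6.50 to 102, the highest level of any member, while RSPO4 goes from 6.77 to 0.10.

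In the R-spondin arm, which raises the number of Frizzled receptors at the membrane by restraining RNF43 and ZNRF3, the ligand and its receptor were both lower. RSPO4, an R-spondin known for its part in nail development, had 168 reads in control and 3 in Akt1/2 DKO. That was 62.1-fold lower, with a wide interval (20.9 to 304) because so few reads were left, and it was the largest difference of any member. The gene (ENSG00000101282) lies on chromosome 20 from 958452 to 1002264. RSPO1, RSPO2 and RSPO3 had no read in either library, so RSPO4 was the only R-spondin with reads here. LGR4 (ENSG00000205213, chromosome 11 from 27365961 to 27472775), a receptor of R-spondins, had 188 and 56 reads, 3.72-fold lower (2.75 to 5.11). LGR5 had 0 and 4 reads and LGR6 none. The ligases differed little, with 199 and 277 reads for RNF43 (1.26-fold, 1.04 to 1.51) and 270 and 349 for ZNRF3 (1.17-fold, 0.992 to 1.37). RNF43 shares 57.6% of its exon bases with AC004687.2 on the same strand and 20.3% with TSPOAP1-AS1 on the opposite strand, neither with a row of that name in the expression table, and 1.91% with SUPT4H1, so its reads are uncertain.

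Among the secreted antagonists only DKK1 and WIF1 were measured. DKK1 (ENSG00000107984, chromosome 10 from 52314296 to 52318042), which binds LRP5 and LRP6 and keeps them from Wnt proteins, had 454 reads in control and 102 in Akt1/2 DKO. It was 4.93-fold lower (95% interval 3.97 to 6.18) and went from an FPKM of 25.3, the highest of all members in control, to 5.28. WIF1, which binds Wnt proteins themselves, had 20 and 26 reads and no detectable difference at this depth (1.17-fold, 0.630 to 2.22). SFRP4 had 2 reads in each library, DKK2 had 0 and 1, and DKK3, DKK4, SFRP1, SFRP2 and SFRP5 had none.

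The intracellular brakes did not move together. AXIN2 (ENSG00000168646, chromosome 17 from 65528563 to 65561647), a scaffold of β-catenin breakdown that the pathway itself induces, had 95 reads in control and 39 in Akt1/2 DKO, 2.70-fold lower (1.84 to 4.03). NKD2, which binds Dishevelled, had 26 and 51 reads, 1.77-fold higher (1.08 to 2.96). The related AXIN1, the broadly expressed scaffold of the same complex, had 606 and 797 reads (1.19-fold, 1.07 to 1.32), and NKD1 had 1 in each library.

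LEF1 was the member of the TCF/LEF factors that was higher in Akt1/2 DKO. The gene (ENSG00000138795, chromosome 4 from 108047545 to 108168956) had 33 reads in control and 167 in Akt1/2 DKO, 4.56-fold higher (95% interval 3.13 to 6.85). TCF7L1, mostly a repressor, had 32 and 20 reads and was 1.77-fold lower, with an interval (0.984 to 3.27 times lower) that held no change. TCF7 had 43 and 38 reads and TCF7L2 94 and 80, and both intervals held no change. In FPKM the order changed with these differences. TCF7L2 held 51.8% of the summed FPKM of the 4 factors in control and 27.6% in Akt1/2 DKO, whereas LEF1 held 15.8% and 56.8%. AXIN2, DKK1 and LEF1 are each known as genes that β-catenin and TCF/LEF factors induce, and here AXIN2 and DKK1 were lower while LEF1 was higher. Each shares exon bases with a gene that has no row in the expression table under its GENCODE name, 25.2% for AXIN2 (AC004805.1, same strand), 9.61% for DKK1 (PRKG1-AS1, opposite strand) and 5.20% for LEF1 (LEF1-AS1, opposite strand).

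The 23 members that were not measured had at most 7 reads when both libraries were summed, and 14 of them had none. Of the ligands, WNT5A had 2 and 5 reads, WNT5B 2 in each, WNT11 0 and 2, WNT1 0 and 1, and WNT16 1 and 0, and WNT6, WNT7A, WNT8A and WNT9B had none. A library with no read of a gene may still have held up to 3 reads' worth, 0.301 CPM in control and 0.280 CPM in Akt1/2 DKO, with only counting error considered.

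The sequences just before the start of 3 members are shown because these genes had the largest rise (FZD5), the largest fall (RSPO4) and a fall in a gene known as a TCF/LEF target (DKK1). Each is the 250 bases before the RefSeq start (GRCh38.p14), 5′ to 3′ on the gene's strand, with the TCF/LEF core CTTTGA, or TCAAAG on the other strand, in capitals. These starts differ from those of the GENCODE positions given above, which for FZD5 is 207769563 on the minus strand.
FZD5, chr2:207769907-207770156, minus strand: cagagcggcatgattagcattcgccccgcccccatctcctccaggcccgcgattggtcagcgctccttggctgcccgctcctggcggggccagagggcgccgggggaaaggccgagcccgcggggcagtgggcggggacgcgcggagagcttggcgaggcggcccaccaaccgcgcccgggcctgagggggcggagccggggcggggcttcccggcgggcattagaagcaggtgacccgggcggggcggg
RSPO4, chr20:1002312-1002561, minus strand: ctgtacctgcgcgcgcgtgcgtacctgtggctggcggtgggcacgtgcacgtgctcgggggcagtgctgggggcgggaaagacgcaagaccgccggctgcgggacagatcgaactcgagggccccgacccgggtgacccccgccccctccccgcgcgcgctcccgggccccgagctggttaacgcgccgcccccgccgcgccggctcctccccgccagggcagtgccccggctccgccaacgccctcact
DKK1, chr10:52314031-52314280, plus strand: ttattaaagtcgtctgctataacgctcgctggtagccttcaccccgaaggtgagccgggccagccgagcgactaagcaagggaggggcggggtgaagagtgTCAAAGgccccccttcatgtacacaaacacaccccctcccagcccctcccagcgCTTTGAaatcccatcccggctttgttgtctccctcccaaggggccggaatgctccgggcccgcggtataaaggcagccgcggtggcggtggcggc

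The DKK1 window held the core 2 times, as TCAAAG starting 149 bases and as CTTTGA starting 95 bases before the start, and the windows of FZD5 and RSPO4 held none. Over windows of 300 bases, which add 50 bases after the start, the core was in 12.9% of all 35116 promoters in the table and at least 2 times in 1.29%. The table held 52 promoters of 41 members, and the core was in 2 of the 52, those of DKK1 and PORCN. TGTTTAC, a FOXO motif (GTAAACA on the other strand), was in 2 of the 52, those of TCF7 and WNT5B, and in 3.42% of all promoters. AGAACA, an androgen receptor half-site (TGTTCT on the other strand), was in 8 of the 52 and in 14.8% of all. As spelled, the core and the half-site can share bases, and each motif was searched on its own. In the 250 bases before the start, G and C made up 76.8% for FZD5, 77.2% for RSPO4 and 62.8% for DKK1, beside a median of 65.2% over the members' promoters and 58% over all promoters in the same 250 bases. A match is a run of letters, a window without one says only that these letters are not in it, and binding was not measured.

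Downstream and accessory genes of the pathway were described from a list of 55 genes outside the rule, of which 47 were measured. Of these, 8 were higher and 11 lower, 17.0% and 23.4%, beside 15.9% and 15% of all measured genes. With at least 100 reads 2 of 36 were higher and 8 lower, 5.56% and 22.2%, beside 11.3% and 11.9% of all genes at this depth. The median log2 fold change was -0.07. APC, a scaffold of β-catenin breakdown, had 373 and 400 reads and lay within 1.5-fold by reads (0.967), whereas its FPKM ratio was 1.52. CTNNB1, which encodes β-catenin, had 6885 reads in control and 4266 in Akt1/2 DKO, 1.79-fold lower (95% interval 1.72 to 1.86). GSK3B, a kinase that marks β-catenin for breakdown, had 1715 and 1172 reads, 1.62-fold lower (1.51 to 1.75), but by FPKM it was 1.42-fold lower and did not reach the threshold. DVL3, a Dishevelled protein that passes the signal on, had 2596 and 1460 reads, 1.97-fold lower (1.85 to 2.10), while DVL1 and DVL2 stayed within 1.5-fold. RYK, a Wnt receptor outside the Frizzled family, had 1182 and 609 reads, 2.15-fold lower (1.95 to 2.38).

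CTNNB1, GSK3B, DVL3 and RYK all lie on chromosome 3, whose 666 genes with at least 50 reads had a median log2 fold change of -0.53, whereas on every other chromosome the median was no lower than -0.20 and no higher than 0.12. In all, 5 of the 6 measured genes of the list on chromosome 3 were lower, PRICKLE2 with only 11 and 3 reads, and CELSR3 (3208 and 3068 reads) lay within 1.5-fold. Of the 666 genes of the chromosome, 579 had a log2 fold change below 0 and 87 above. How many of them were at least 1.5-fold lower was not counted, so 5 of 6 has no share to stand beside. The part of the chromosome in these differences was not tested. Of the 59 members, WNT5A and WNT7A lie on chromosome 3, and neither was measured, so no measured member lies there.

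Elsewhere in the genome, PTK7, a co-receptor of the planar polarity branch, had 281 and 70 reads, 4.45-fold lower in Akt1/2 DKO (3.41 to 5.87). CTNNBIP1, which keeps β-catenin from TCF factors, had 537 and 273 reads, 2.18-fold lower (1.88 to 2.53). The DKK1 receptors KREMEN1 (113 and 81 reads) and KREMEN2 (814 and 534 reads) were 1.55-fold and 1.69-fold lower. APC2, a relative of APC, had 37 and 163 reads, 3.97-fold higher (2.77 to 5.84) by reads and 7.11-fold by FPKM, and GPC6, a cell-surface glypican, had 163 and 703, 3.89-fold higher (3.28 to 4.64). Named after their values were seen, ROR1, a receptor of WNT5A, had 0 and 47 reads, at least 14.1-fold higher against a floor of 3 reads in control, and the antagonist SOSTDC1 had 1 and 85 reads (76.7-fold, 13.4 to 3063).

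**Figure D4:**
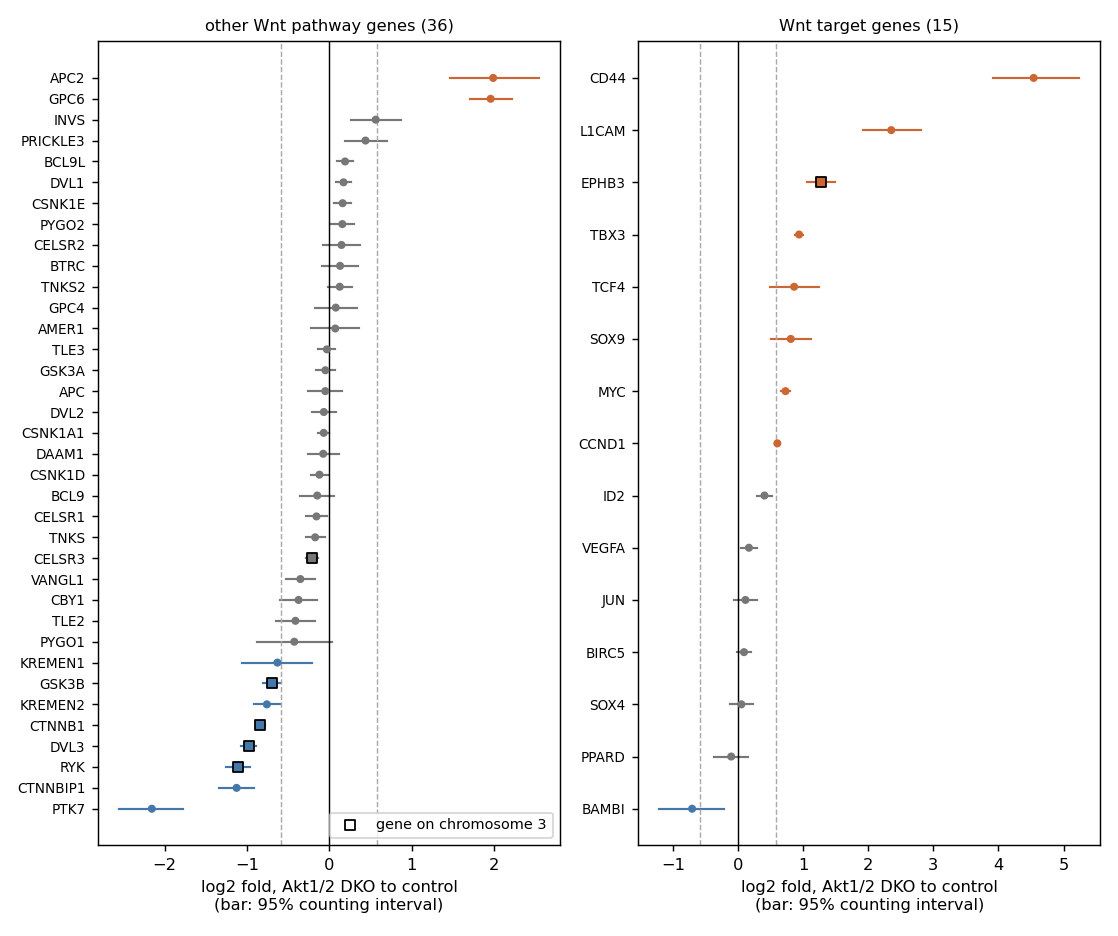
Log2 fold of normalized reads, Akt1/2 DKO to control, with 95% counting intervals, for the 36 other Wnt pathway genes (left) and the 15 Wnt target genes (right) whose reads over both libraries summed to 100 or more; squares mark genes on chromosome 3 and dashed lines 1.5-fold. On the left 4 of the 8 genes below the lower line are squares, and on the right 8 of 15 genes lie above the upper line. Of all genes at this depth, 11.3% were higher and 11.9% lower.

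Genes commonly cited as targets of β-catenin and TCF were taken from a list of 28 outside the rule, of which 21 were measured, 11 higher and 2 lower (52.4% and 9.52%, beside 15.9% and 15% of all measured genes). This list, too, was set with earlier results known. Their median log2 fold change was 0.60. CD44, a cell adhesion receptor, had 21 reads in control and 542 in Akt1/2 DKO, 23.3-fold higher (15.1 to 37.9), while its FPKM ratio was smaller, 12.4. L1CAM had 50 and 283 reads and EPHB3 258 and 691, 5.10-fold (3.77 to 7.04) and 2.42-fold (2.09 to 2.80) higher. EPHB3 lies on chromosome 3 and was higher all the same. MYC had 2556 and 4689 reads, 1.65-fold higher (1.58 to 1.74), and TBX3 had 2844 and 6030, 1.91-fold higher. CCND1, which encodes cyclin D1, had 23366 and 39293 reads, and its 1.52-fold difference (1.49 to 1.54) lay at the threshold. SOX9 (135 and 262 reads) and TCF4 (88 and 177) were 1.75-fold and 1.81-fold higher, and BAMBI (87 and 59) was 1.63-fold lower. TCF4 is a helix-loop-helix gene and not TCF7L2, and its FPKM ratio was 1.18. EPHB2, the other target that was lower, had 56 and 8 reads and was named after its values were seen. Each of these genes also has regulators outside the Wnt pathway. AXIN2, DKK1 and LEF1 are members and were left off this list.

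The fold of reads and the ratio of FPKM were close for most members. They lay more than 1.5 times apart for 2 of the 36, FZD3 (3.81 by reads and 2.19 by FPKM) and WNT4 (0.827 and 1.39), and for 3.73% of the 13124 measured genes with both values. For WNT4, with 12 and 11 reads, the direction differed between the scales. AXIN2 was 2.70-fold lower by reads and 2.05-fold lower by FPKM.

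Ordered by FPKM, the members with the highest levels in control cells were DKK1 (25.26), AXIN1 (17.89), LRP6 (17.71), FZD6 (16.81) and LRP5 (16.8). In Akt1/2 DKO cells they were FZD5 (102.01), AXIN1 (21.62), WNT10B (16.18), LRP5 (15.25) and FZD6 (13.96). Without replicates, neighbours in these orders cannot be said to differ. WNT7B went from 0.66 to 5.33, WLS from 1.18 to 6.75 and LEF1 from 1.35 to 6.90, so all of these were among the low members in control cells. LGR4 went the other way, from 3.60 to 1.0.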

How the data were processed

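Total RNA was sequenced from 1 Akt1/2 DKO and 1 control library. The submitters' processing notes name fastp 0.20.0, TopHat, Cufflinks, edgeR and the build GRCh38.p10, without their roles, and the counting tool and annotation are not given in the sources used here. The authors deposited estimated counts per gene, not normalized, and FPKM values. Other deposited tables hold the authors' own fold changes, p-values and summaries, and were not used.

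Estimated counts were rounded to whole reads and scaled by TMM (edgeR 4.0.16, R 4.3.3), which gave an effective library size 1.11 times larger for Akt1/2 DKO than for control. Genes whose reads summed to at least 10 over both libraries were kept. Intervals are exact 95% Clopper-Pearson intervals given the sum of both libraries (scipy 1.17.1) and describe counting error alone. Against a library with 0 reads the fold was taken from a floor of 3 reads and is a bound. The steps were checked on simulated reads with counting error alone. Far fewer genes were changed there than in these data, and only well-read ones. The check therefore does not cover variation between replicates or changes in genes with few reads. Positions are from GENCODE release 29 (GRCh38), in which all 59 members were found, and promoters from RefSeq (GRCh38.p14).

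All measured members are named. Of the other lists, named genes are those changed at least 1.5-fold with at least 100 reads, and CTNNB1, GSK3B, APC and MYC. Other genes named were chosen after their values were seen. Members and lists were chosen with earlier results of these data known. Results were also computed with DESeq2 1.42.0 size factors, scaling to the total count, FPKM, a 2-fold threshold, other read filters, intervals that leave out no change, and a prior count of 1 read.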

Additional observations from a re-analysis of the deposited data

How the results depend on the processing

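The numbers of members higher and lower stayed within 1.5 times of 13 and 8 under each alternative run, with 10 to 14 higher and 6 to 8 lower, and their median log2 fold change lay between 0.23 and 0.49. No measured member changed its side of the 1.5-fold threshold under another scaling, the FPKM of the authors or a prior count of 1 read. Of 208 values of single members, 206 stayed within their counting interval, and FZD3 (1.13 on the log2 scale) and ZNRF3 (0.50) moved past it with FPKM, for which the cause was not tested. With a 2-fold threshold, which asks for a larger difference, 2390 of all genes were changed in place of 4116, 6 of the other Wnt pathway genes were lower in place of 11, and 6 and 1 of the Wnt target genes were higher and lower in place of 11 and 2. With genes kept only from a sum of 50 reads, fewer genes were tested and 3 of the other Wnt pathway genes were higher in place of 8. Among the genes named from the other lists, GSK3B, APC and TCF4 changed their side of the threshold with FPKM, for which the cause was not tested. KREMEN1, 1.55-fold lower in the main run, fell just short of the threshold when reads were scaled to the total count. With that scaling 10 of the other Wnt pathway genes were lower in place of 11. With FPKM, genes listed at 0 in either library were not counted. Another scaling moved the median of all genes by at most 0.045 on the log2 scale. The depth limits members such as WNT2, FZD2 and TCF7L1, whose intervals held no change. No paired analysis was possible because neither group has more than 1 library.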
